A study of Homo sapiens with 8 samples.

Results

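Mitochondria in a living cell fuse, divide and are taken away by autophagy, and the transcripts of 9 nuclear genes of this machinery were followed here. They were MFN1 and MFN2 (outer membrane fusion), OPA1 and OMA1 (inner membrane fusion and its control), DNM1L, FIS1 and MFF (fission) and PINK1 and FUNDC1 (removal of mitochondria, called mitophagy). They were picked by symbol as listed genes of mitochondrial dynamics and mitophagy, not by their values, and they are 9 of the 23393 genes in the table of read counts. All 9 passed the filter on low counts and are among the 15262 genes tested. RNA-seq was done on MDA-MB-231, an established human breast cancer cell line, and on its ρ0 derivative, which lacks mitochondrial DNA, in 4 groups of 2 libraries each. Parental cells were grown in full medium or depleted of arginine for 48 h, and ρ0 cells were given the same 2 conditions. The labels describe the depletion as arginine deiminase, an enzyme that destroys arginine, at 0.3 µg/mL, whereas the methods of the study describe medium without arginine. Both depleted groups are called arginine-starved here. The ρ0 cells were a single clone, number 27, kept in medium with pyruvate, uridine and ethidium bromide, so that loss of mitochondrial DNA, clone and medium cannot be told apart in any comparison of the lines. The labels do not say whether replicates were separate cultures, and p-values then measure the spread between these libraries, which may be technical.

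Fusion joins both membranes of neighbouring mitochondria. The mitofusins MFN1 and MFN2 are GTPases that tether and fuse the outer membranes, and OPA1 is the dynamin-like GTPase that fuses the inner membranes and shapes the cristae. OMA1 is a stress-activated protease of the inner membrane that cleaves OPA1 when the membrane potential is lost, and so stops fusion. DNM1L encodes DRP1, the cytosolic GTPase that constricts and cuts mitochondria, MFF is a main receptor that brings it to the outer membrane, and FIS1 is another outer membrane protein linked to fission. PINK1 is a kinase that accumulates on depolarized mitochondria and activates the ubiquitin ligase Parkin, and FUNDC1 is an outer membrane receptor that binds LC3 directly and is best known for mitophagy in hypoxia. Much of this system is controlled by cleavage, phosphorylation and protein turnover, which transcript counts do not measure.

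The libraries held between 25259503 and 31022155 counts. The biological coefficient of variation between the 2 libraries of a group was 5.18% in parental full medium, 2.25% in parental arginine-starved, 25.1% in ρ0 full medium and 1.84% in ρ0 arginine-starved cells. The full-medium ρ0 pair therefore stood apart, and values that change their call or sign, or move by more than 1.5 times, with 1 of these libraries are also given without it. The 1 library that then remains is taken to vary like the other groups, and adjusted p-values become smaller in general: without full-medium ρ0 library 1 or 2, 79.9% and 80.1% of tested genes were called for arginine-starved parental cells, and 62.8% and 62.4% for arginine-starved ρ0 cells. VIM, CD44, EGFR and AXL, which mark this mesenchymal-like line, were counted in all 8 libraries, with a summed level of 2537 to 7098 CPM (counts scaled to a common library size). The defining luminal markers ESR1 and PGR were at or near 0 throughout. The group means of GATA3, CDH1 and EPCAM, also luminal or epithelial markers, were higher in ρ0 than in parental cells in both conditions. In full medium GATA3 was at 4.52 CPM in parental and 16.5 CPM in ρ0 cells. CDH1 was at 0.030 and 15.002 CPM there, and EPCAM at 0.470 and 23.1 CPM. After starvation the parental and ρ0 means were 5.18 and 10.4 CPM for GATA3. They were 0.0354 and 4.54 CPM for CDH1 and 0.0177 and 18.1 CPM for EPCAM. The 5 luminal and epithelial markers summed to between 4.79 and 5.67 CPM in the parental libraries, to 54.2 and 55.2 CPM in full-medium ρ0 and to 31.1 and 35.1 CPM in arginine-starved ρ0 libraries. The part of this difference in the comparisons of the lines was not tested. In bulk RNA, fewer cells that carry a transcript and less of it per cell cannot be told apart. No gene of the mitochondrial genome is in the table analysed here.

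In parental cells in full medium, PINK1 had the highest level of the 9 genes per length, at 63.2 ± 4.76 CPM per kb of median coding transcript (SD, n = 2, as for all levels). FIS1 followed at 54.1 ± 2.15 and MFF at 44.4 ± 2.67 CPM per kb, and the ranges of these 3 genes did not overlap. OMA1 at 11.7 ± 0.756, MFN1 at 10.2 ± 0.519 and FUNDC1 at 10.1 ± 1.17 CPM per kb were the lowest, and the ranges of MFN1 and FUNDC1 overlapped. After arginine starvation of parental cells FIS1 was highest at 55.1 ± 3.33 CPM per kb, PINK1 was at 18.1 ± 0.331 CPM per kb, and OMA1 was lowest at 5.86 ± 0.00636 CPM per kb, with no overlap between neighbours in the order. In ρ0 cells DNM1L was the highest of the 9 genes, at 73.5 ± 6.69 CPM per kb in full medium and 66.4 ± 1.31 CPM per kb after starvation. OMA1 was the lowest there, at 4.62 ± 0.443 and 6.58 ± 0.0492 CPM per kb. In full-medium ρ0 cells the range of PINK1 (33.5 to 59.7 CPM per kb) overlapped those of FIS1 and MFN2, and that of MFN2 overlapped that of FUNDC1. In arginine-starved ρ0 cells the ranges of OPA1 and FUNDC1 overlapped.

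**Figure D1:**
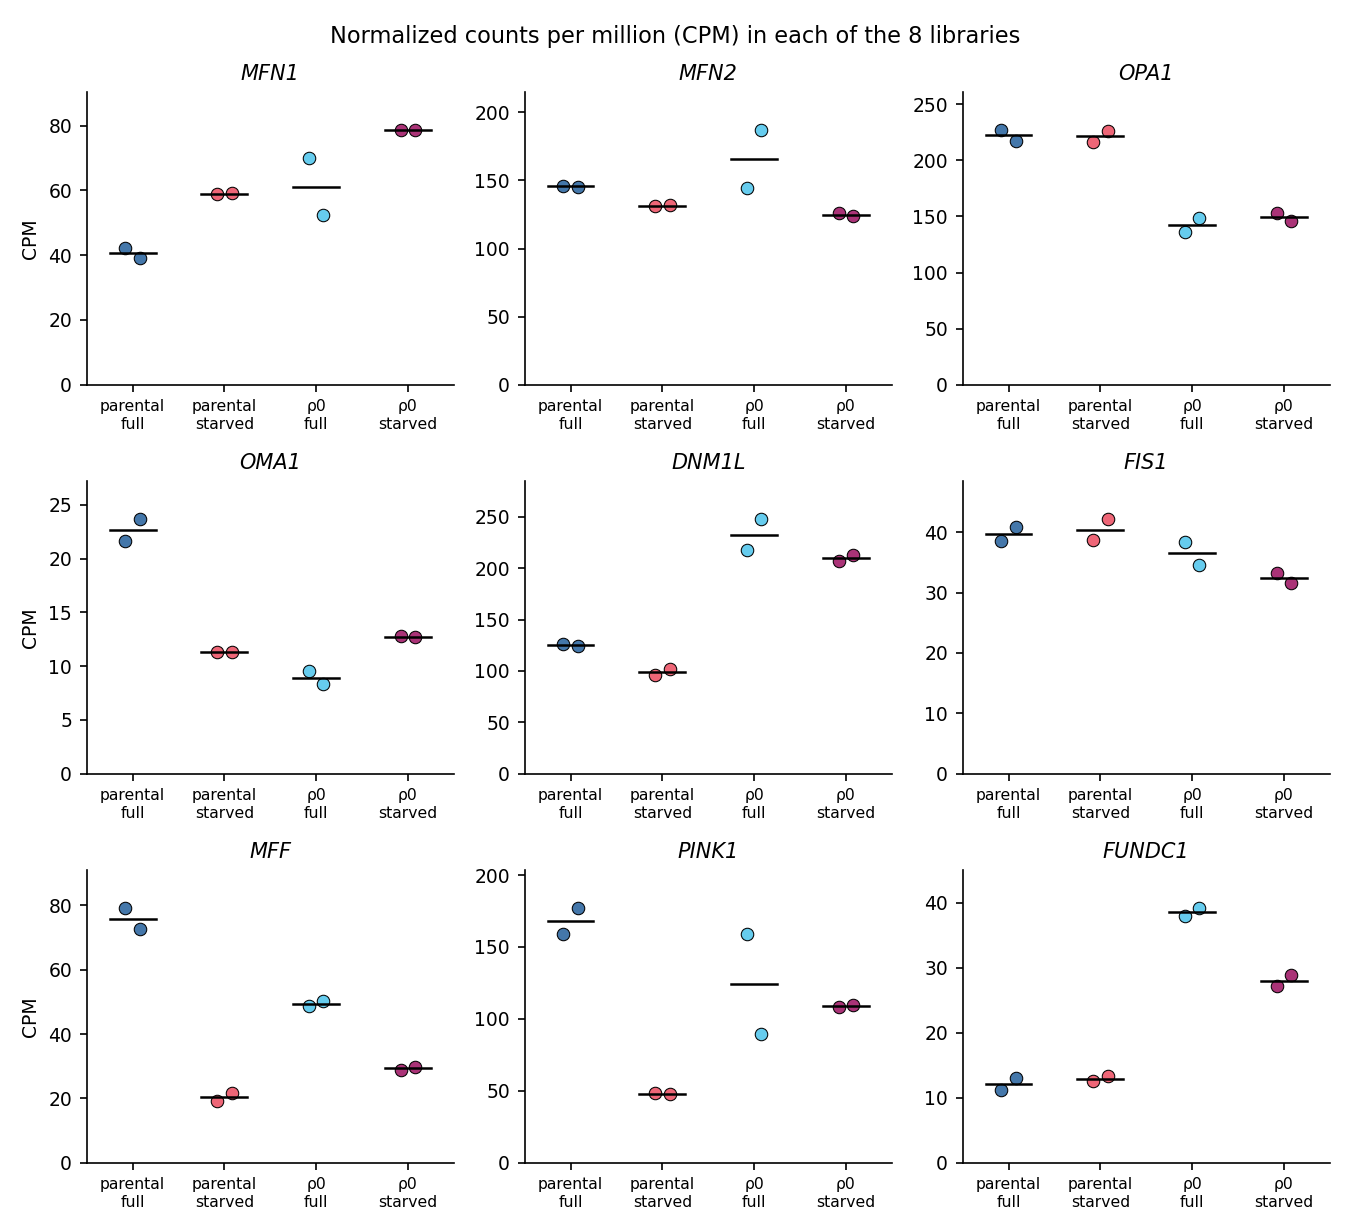
Level of each of the 9 genes (CPM, linear axes from 0 that differ between panels) in every library, by group, with points for libraries and a line at the mean of each group. MFF and PINK1 lie far lower in arginine-starved than in full-medium parental cells, FUNDC1 lies higher in all 4 ρ0 libraries than in the parental ones, and the 2 full-medium ρ0 points of PINK1 lie far apart.

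The promoters of OMA1 and MFF are shown because both transcripts fell in arginine-starved parental cells and answered starvation differently in the 2 lines, as described below. PINK1 did so too and has no entry. The 250 bases before each start are given on the gene's strand, from RefSeq on GRCh38.p14, with capitals for the letters TGCGCA, the core of the motif bound by NRF1, a regulator of nuclear genes for mitochondria. OMA1 lies on chromosome 1, and its window is chr1:58546727-58546976 on the minus strand. MFF lies on chromosome 2, and the window of the first of its 3 listed starts is chr2:227325001-227325250 on the plus strand.
OMA1: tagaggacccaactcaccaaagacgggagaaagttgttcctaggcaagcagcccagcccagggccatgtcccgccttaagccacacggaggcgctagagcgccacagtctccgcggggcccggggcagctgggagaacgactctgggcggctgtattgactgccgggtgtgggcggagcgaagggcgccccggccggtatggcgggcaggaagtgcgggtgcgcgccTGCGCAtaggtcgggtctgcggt
MFF: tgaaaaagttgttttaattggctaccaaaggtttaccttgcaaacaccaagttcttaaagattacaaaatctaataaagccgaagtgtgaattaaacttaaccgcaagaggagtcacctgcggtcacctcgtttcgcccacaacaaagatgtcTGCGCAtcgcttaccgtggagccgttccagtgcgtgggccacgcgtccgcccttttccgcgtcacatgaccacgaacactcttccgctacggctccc
The letters begin 23 bases before the start of OMA1 and 97 bases before that of MFF. Over windows from 250 bases before to 50 after a start, TGCGCA was found on either strand in 6 of 10 listed promoters of 8 members, against 8.2% of 35116 promoters. The members with it were OMA1, MFF, OPA1, FIS1, DNM1L and FUNDC1. CCGGAAG, a core bound by ETS factors, was in 2 of the 10, those of MFN1 and FIS1, against 10.3% of all promoters. CACGTG (an E-box, 7.3% of all promoters) and TGATGCA (the core bound by ATF4 and CHOP dimers, 2.6%) were in none of the 10. FIS1 alone held TGCGCA and CCGGAAG together, 91 and 9 bases before its start, and these do not overlap. A match is only a description of the window, and these shares were not adjusted for base composition.

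The comparison of arginine-starved with full-medium parental cells asks how this machinery responded to 48 h without arginine in cells with mitochondrial DNA. Transcripts of the fission receptor MFF and the mitophagy kinase PINK1 fell most, 3.69-fold and 3.49-fold, OMA1 fell 1.99-fold and DNM1L 1.26-fold, while MFN1 rose 1.45-fold. No change was called for MFN2, OPA1, FIS1 and FUNDC1. With a call defined as a Benjamini-Hochberg adjusted p under 0.05 from edgeR's quasi-likelihood test over all tested genes, 5 of the 9 members were called, against 65.9% of all tested genes. Of these, 4 were lower (35.5% of all tested genes) and 1 was higher (30.4%). MFF and PINK1 were also past a log2 fold change of 1 in size, as were 34.9% of all tested genes. The median log2 fold change was -0.15 over the members and -0.07 over all tested genes. The 2 groups did not overlap for 6 members, a state that held for 89.2% of the tested genes. The count of called members changed with the library left out, as did the share of all tested genes called.

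The same comparison in ρ0 cells asks how cells without mitochondrial DNA responded. MFF fell 1.69-fold, FUNDC1 1.38-fold and MFN2 1.33-fold, and OMA1 rose 1.43-fold. In this contrast 4 of the 9 members were called, against 41.3% of all tested genes. Of these, 3 were lower (22.1% of all tested genes) and 1 was higher (19.2%). No member was past a log2 fold change of 1 in size, compared with 12.4% of all tested genes. The median log2 fold change was -0.17 over the members and -0.02 over all tested genes, and the groups did not overlap for 7 members, against 67.5% of tested genes. The count of called members rose without either full-medium ρ0 library and fell without either arginine-starved one. The share of all tested genes called did the same, so that this is not particular to the members.

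**Figure D2:**
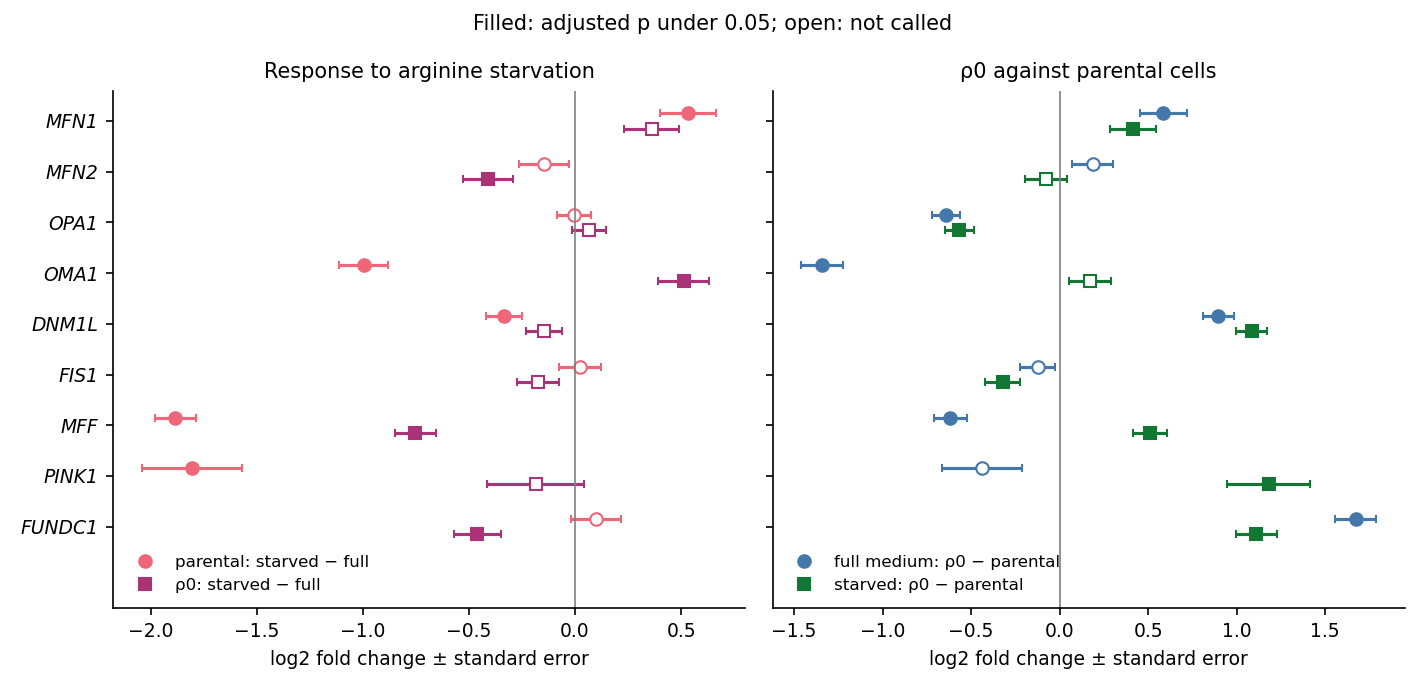
Log2 fold change of each gene with its standard error, for arginine starvation in parental and ρ0 cells (left) and for ρ0 against parental cells in full medium and after starvation (right), with filled points for an adjusted p under 0.05. OMA1 lies below 0 in parental and above 0 in ρ0 cells on the left, and MFF lies below 0 in full medium and above 0 after starvation on the right.

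Among the outer membrane fusion genes, MFN1 was at 42.2 and 39.3 CPM in the 2 full-medium parental libraries and at 58.8 and 59.2 CPM in the arginine-starved ones. It was at 69.9 and 52.5 CPM in full-medium and at 78.6 and 78.6 CPM in arginine-starved ρ0 libraries. Both arginine-starved libraries were above both full-medium ones in each line. The rise in parental cells was 0.53 ± 0.13 on the log2 scale (SE, adjusted p = 0.00859), and it missed the threshold without full-medium parental library 2 (adjusted p = 0.0650). In ρ0 cells the log2 fold change of MFN1 was 0.36 ± 0.13 and was not called (adjusted p = 0.0611). It was called by DESeq2 (0.37, adjusted p = 0.0493) and in edgeR with no filter (0.39, adjusted p = 0.0456). It was 0.58 without full-medium ρ0 library 1 and 0.18 without library 2, and both of these passed the test (adjusted p = 1.99e-07 and 0.0158).

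MFN2 was at 146.0 and 145.3 CPM in full-medium and at 131.3 and 131.8 CPM in arginine-starved parental libraries. In ρ0 cells it was at 144.6 and 186.8 CPM in full medium and at 125.9 and 123.8 CPM after starvation. The arginine-starved libraries of both lines were the lowest 4 of the 8. In parental cells the log2 fold change was -0.15 ± 0.12 and was not called (adjusted p = 0.302), though it passed the test without full-medium ρ0 library 1 or 2 (adjusted p = 0.00267 and 0.0217), by limma-voom with group weights (0.0108) and in a fit to the 4 parental libraries (0.0342). In ρ0 cells MFN2 fell by 0.41 on the log2 scale (SE 0.12, adjusted p = 0.0277). This fall was not called in a fit to the 4 ρ0 libraries (-0.39, adjusted p = 0.133). The value was -0.58 without full-medium ρ0 library 1 and -0.20 without library 2, and the call was lost without any 1 of the other 6 libraries (adjusted p from 0.0594 to 0.153). The starvation responses of the 2 lines did not differ past the threshold for MFN1 (difference -0.17, 95% confidence interval -0.61 to 0.26) or MFN2 (-0.26, -0.65 to 0.13). These differences rest on the full-medium ρ0 library used. For MFN1 the difference was 0.05 without library 1 (adjusted p = 0.592) and -0.39 without library 2 (adjusted p = 4.46e-04), and for MFN2 it was -0.43 without library 1 (adjusted p = 8.80e-06) and -0.09 without library 2 (adjusted p = 0.246). Within each library, the ratio of MFN1 to MFN2 counts, a ratio chosen after its values were seen, was 0.289 and 0.270 in full-medium and 0.448 and 0.449 in arginine-starved parental cells. In ρ0 cells it was 0.484 and 0.281 in full medium and 0.625 and 0.634 after starvation.

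Of the inner membrane pair, OPA1 hardly moved with starvation. It was at 226.9 and 217.7 CPM in full-medium and at 216.8 and 226.1 CPM in arginine-starved parental libraries, and at 136.3 and 149.0 against 152.7 and 146.4 CPM in ρ0 libraries. Groups overlapped in each line, and all 4 ρ0 libraries were below all 4 parental ones. The log2 fold change with starvation was -0.01 (95% confidence interval -0.19 to 0.18) in parental and 0.07 (-0.12 to 0.26) in ρ0 cells, so that changes beyond these limits were not seen. The ρ0 value was 0.01 without full-medium ρ0 library 1 (adjusted p = 0.935) and 0.15, past the threshold, without library 2 (adjusted p = 0.0233). OPA1-AS1, which shares 208 exon bases with OPA1 on the opposite strand, had between 4 and 10 counts.

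OMA1 moved in opposite directions in the 2 lines. It was at 21.6 and 23.7 CPM in full-medium and at 11.3 and 11.3 CPM in arginine-starved parental libraries. In ρ0 cells it was at 9.54 and 8.33 CPM in full medium and at 12.8 and 12.7 CPM after starvation. The groups did not overlap in either line, and the arginine-starved libraries of both lines were close to each other. OMA1 fell by 0.996 on the log2 scale in parental cells (SE 0.12, adjusted p = 2.20e-04) and rose by 0.51 ± 0.12 in ρ0 cells (adjusted p = 0.0121). The difference between the responses was 1.51 ± 0.17 (adjusted p = 8.82e-04). The rise in ρ0 cells kept its size, 0.52 and 0.54, but not its call without arginine-starved ρ0 library 1 or 2 (adjusted p = 0.0743 and 0.0666). It was also not called by limma-voom with group weights (adjusted p = 0.201) or in a fit to the 4 ρ0 libraries alone (adjusted p = 0.0760). OMA1 shares 257 exon bases with DAB1 on the same strand in the GENCODE annotation, and DAB1 had between 0 and 2 counts in the libraries.

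Among the fission genes, DNM1L was at 126.0 and 123.9 CPM in full-medium and at 96.5 and 101.6 CPM in arginine-starved parental libraries. It was at 217.7 and 247.7 CPM in full-medium and at 207.2 and 213.0 CPM in arginine-starved ρ0 libraries. Each ρ0 library was above every parental library. DNM1L fell by 0.34 on the log2 scale in parental cells (SE 0.09, adjusted p = 0.0102), a call that was lost without full-medium parental library 1 (adjusted p = 0.0572) or arginine-starved parental library 1 (0.0860). In ρ0 cells its value was -0.15 ± 0.09 and was not called (adjusted p = 0.208), though it passed the test without full-medium ρ0 library 1 (-0.24, adjusted p = 4.07e-04), while it was -0.04 without library 2 (adjusted p = 0.521). The difference between the responses was not called with all libraries (0.19, 95% confidence interval -0.10 to 0.47), but was in 1 of 17 alternative runs. It was 0.10 without full-medium ρ0 library 1 and 0.26 without library 2.

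FIS1 varied least of the 9 genes. It was at 38.6 and 40.8 CPM in full-medium and at 38.7 and 42.1 CPM in arginine-starved parental libraries, and at 38.4 and 34.5 against 33.2 and 31.5 CPM in ρ0 libraries. The arginine-starved ρ0 libraries were the lowest 2 of the 8. Its log2 fold change with starvation was 0.03 (95% confidence interval -0.20 to 0.26) in parental and -0.17 (-0.40 to 0.06) in ρ0 cells. The ρ0 value was -0.09 without full-medium ρ0 library 1 (adjusted p = 0.337) and -0.23, past the threshold, without library 2 (adjusted p = 0.0135). The difference between the responses, -0.20 (-0.52 to 0.13), was not called with all libraries, but was in 1 of 17 alternative runs. It was -0.11 without full-medium ρ0 library 1 and -0.30 without library 2.

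MFF had the largest fall of the 9 genes in both lines. It was at 79.1 and 72.7 CPM in full-medium and at 19.3 and 21.8 CPM in arginine-starved parental libraries. In ρ0 libraries it was at 48.8 and 50.2 CPM in full medium and at 28.9 and 29.8 CPM after starvation. Each arginine-starved library was below every full-medium library, those of the other line included. The fall was 1.88 on the log2 scale in parental cells (3.69-fold, SE 0.10, adjusted p = 1.02e-05), where 11.8% of tested genes had a lower value. In ρ0 cells MFF fell by 0.75 on the log2 scale (SE 0.10, adjusted p = 0.00102). The difference between the responses was 1.13 ± 0.14 (adjusted p = 0.00114). All 3 of these calls stood under each alternative run that set no fold threshold, including each library left out. Counts of MFF per count of DNM1L, a ratio chosen after its values were seen, were 0.628 and 0.587 in full-medium parental, 0.200 and 0.215 in arginine-starved parental, 0.224 and 0.203 in full-medium ρ0 and 0.139 and 0.140 in arginine-starved ρ0 libraries.

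Of the mitophagy genes, PINK1 was at 159.0 and 176.9 CPM in full-medium and at 48.7 and 47.5 CPM in arginine-starved parental libraries. In ρ0 cells it was at 158.7 and 89.2 CPM in full medium and at 108.0 and 109.9 CPM after starvation. Both starved parental libraries were far below the rest, and the 2 full-medium ρ0 libraries lay on either side of the starved ones. PINK1 fell by 1.80 on the log2 scale in parental cells (3.49-fold, SE 0.24, adjusted p = 3.79e-04). In ρ0 cells its value was -0.19 ± 0.23 and was not called (adjusted p = 0.550). That value rests on which full-medium ρ0 library is used, at 0.29 without library 1 (adjusted p = 5.95e-04) and -0.53 without library 2 (adjusted p = 4.40e-07). The difference between the responses was 1.62 ± 0.33 (adjusted p = 0.00761), and it was 2.10 and 1.24 without these libraries in turn. PINK1 shares 1907 exon bases with PINK1-AS on the opposite strand, and since the strand setting of the counting is not given in the sources used here, reads of the 2 genes cannot be told apart. PINK1-AS itself was not analysed here, nor were the antisense neighbours that share 48 exon bases with MFF and 202 with DNM1L.

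**Figure D3:**
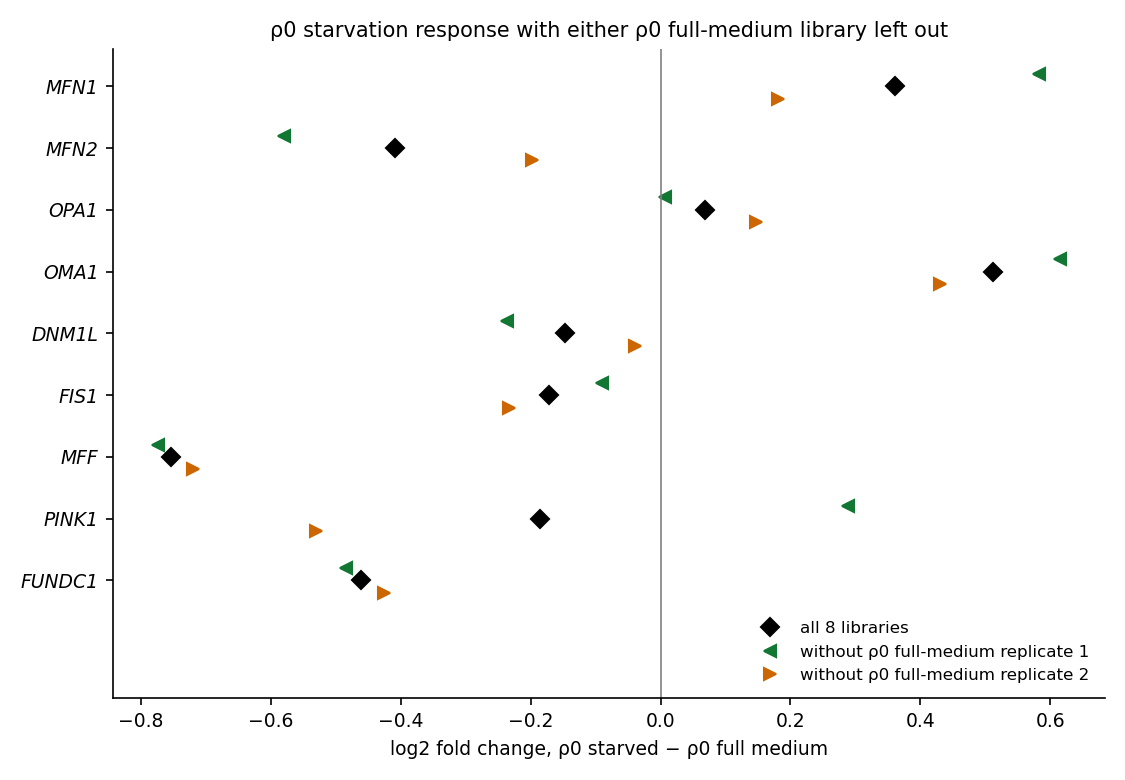
Log2 fold change of each gene with arginine starvation in ρ0 cells, from all 8 libraries and without full-medium ρ0 library 1 or library 2. PINK1 lies on either side of 0, at 0.29 and -0.53, MFN1 at 0.58 and 0.18 and MFN2 at -0.58 and -0.20, and MFF and FUNDC1 hardly move.

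FUNDC1 was at 11.1 and 13.1 CPM in full-medium and at 12.5 and 13.4 CPM in arginine-starved parental libraries, which overlapped. It was at 38.0 and 39.2 CPM in full-medium and at 27.1 and 28.9 CPM in arginine-starved ρ0 libraries. All 4 ρ0 libraries were above all 4 parental ones. The log2 fold change was 0.10 (95% confidence interval -0.17 to 0.37) in parental cells, and in ρ0 cells FUNDC1 fell by 0.46 (SE 0.11, adjusted p = 0.0139). The difference between the responses was -0.56 ± 0.16 (adjusted p = 0.0283). The fall in ρ0 cells was not called without arginine-starved ρ0 library 1 or 2 (adjusted p = 0.122 and 0.0754), by limma-voom with group weights (0.0702) or in a fit to the 4 ρ0 libraries (0.0557). The difference was not called without any 1 of 5 libraries, namely full-medium parental library 1 and the 4 arginine-starved ones (adjusted p from 0.0721 to 0.114), nor with upper quartile scaling (0.0557) or total counts (0.0526). FUNDC2, its paralog, had between 471 and 1617 counts and was counted as a gene of its own. The ratio of PINK1 to FUNDC1 counts, chosen after its values were seen, was 14.3 and 13.5 in full-medium parental libraries and between 2.28 and 4.18 in the other 6.

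The test of the difference between the 2 starvation responses asks whether the lines answered differently. It called 4 of the 9 members, against 40.4% of all tested genes. The log2 response of OMA1, MFF and PINK1 was higher in ρ0 than in parental cells (3 members, against 21.6% of tested genes). That of FUNDC1 was lower (1 member, against 18.8%). The median difference was 0.07 on the log2 scale over the members and 0.02 over all tested genes. Without full-medium ρ0 library 1, 5 members were called (65.9% of all tested genes in that fit), and without library 2, 7 were (59.5%).

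The comparison of ρ0 with parental cells in full medium asks how the line without mitochondrial DNA differed before starvation. FUNDC1 was 3.19-fold, DNM1L 1.86-fold and MFN1 1.5-fold higher in ρ0 cells, and OMA1 was 2.53-fold, OPA1 1.56-fold and MFF 1.53-fold lower. These 6 of 9 members were called, against 62.3% of all tested genes, with 3 higher (30.5% of tested genes) and 3 lower (31.8%). FUNDC1 and OMA1 were past a log2 fold change of 1 in size, against 30.9% of tested genes. The largest difference was that of FUNDC1, 1.67 ± 0.12 on the log2 scale (adjusted p = 1.89e-05), where 7.33% of tested genes had a higher value. OMA1 differed by -1.34 ± 0.12 (adjusted p = 5.90e-05) and DNM1L by 0.90 ± 0.09 (adjusted p = 8.95e-05). MFN1 (0.59 ± 0.13, adjusted p = 0.00601) missed the threshold without full-medium parental library 2 (0.0510). Its value was 0.36 without full-medium ρ0 library 1 and 0.83 without library 2, past the threshold in both. MFN2 (0.19 ± 0.12, adjusted p = 0.203) and FIS1 (-0.12 ± 0.10, adjusted p = 0.307) were not called, but passed the test without library 1 at 0.36 (adjusted p = 1.76e-06) and -0.20 (adjusted p = 0.0236), while without library 2 they were 0.04 and 0.0078. All 9 members were called without library 1, against 77.3% of tested genes in that fit. PINK1 was not called (-0.44 ± 0.23, adjusted p = 0.132), but its value was -0.91 and passed the test without full-medium ρ0 library 1 (adjusted p = 1.46e-10), and it was -0.03 without library 2 (adjusted p = 0.694). By limma-voom with group weights it was also called (-0.50, adjusted p = 0.0336). The groups did not overlap for 8 members, against 77.1% of tested genes, and the median was -0.12 over members and -0.01 over all tested genes.

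After arginine starvation of both lines, 7 of the 9 members differed between them, against 66.5% of all tested genes. MFN1, DNM1L, MFF, PINK1 and FUNDC1 were higher in ρ0 cells (5 members, against 32.9% of tested genes), and OPA1 and FIS1 were lower (2 members, against 33.5%). PINK1 was 2.27-fold higher (log2 1.18 ± 0.23, adjusted p = 0.00296), FUNDC1 2.16-fold (1.11 ± 0.12, adjusted p = 1.07e-04) and DNM1L 2.12-fold (1.08 ± 0.09, adjusted p = 3.15e-05). These 3 were past a log2 fold change of 1, as were 35.5% of tested genes. MFF, lower in ρ0 than in parental cells in full medium, was 1.43-fold higher after starvation (0.51 ± 0.10, adjusted p = 0.00244). OMA1 was not called (0.17 ± 0.12, adjusted p = 0.240), though it was in 1 of 18 alternative runs. The calls of MFN1 (0.41 ± 0.13, adjusted p = 0.0248) and FIS1 (-0.32 ± 0.10, adjusted p = 0.0222) were each lost without any 1 of the 4 arginine-starved libraries, with adjusted p from 0.0822 to 0.105 for MFN1 and from 0.0517 to 0.177 for FIS1. Over all 18 alternative runs the call of MFN1 was lost in 4 and that of FIS1 in 6. The full-medium ρ0 libraries are in neither group of this comparison, and enter it through the filter, the scaling and the shared estimate of the spread. The 2 groups did not overlap for all 9 members, against 90.8% of tested genes. The median was 0.41 over the members and -0.01 over all tested genes. The comparisons above share groups of libraries, so that their values are not independent of one another.

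A wider list of 51 genes of mitochondrial dynamics, mitophagy and mitochondrial transport, 42 of them beyond the members, puts these values in context. All 51 were tested. In arginine-starved parental cells 15 were higher, 16 were lower and 20 were not called, with a median log2 fold change of 0.03 against -0.07 over all tested genes, of which 30.4% were higher and 35.5% lower. The groups by role are to be read against the same shares. Of 5 outer membrane fusion genes, 3 were higher and 0 lower. The fission genes were 2 higher and 6 lower of 13, and those of the PINK1 and Parkin pathway 5 higher and 3 lower of 11. Mitophagy receptors and adaptors were 3 higher and 4 lower of 10, genes of inner membrane fusion and OPA1 processing 2 higher and 1 lower of 8, and those of mitochondrial transport 0 higher and 2 lower of 4.

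Beyond the members, the largest rises of the list in parental cells were those of PLD6, SQSTM1 and TAX1BP1. PLD6, an outer membrane phospholipase that acts in mitofusin-driven fusion, went from 22.4 ± 0.442 to 128.0 ± 3.27 CPM (log2 2.51 ± 0.34, adjusted p = 4.67e-04). SQSTM1 (p62), an autophagy adaptor that binds ubiquitin, went from 196.5 ± 13.9 to 609.7 ± 30.8 CPM (log2 1.63 ± 0.21, adjusted p = 3.27e-04), and TAX1BP1, another adaptor, rose by 1.04 ± 0.16 on the log2 scale (adjusted p = 7.43e-04). Among genes with a mean of at least 1 CPM, the largest falls were those of USP30, MIEF2 and MTFR1L. USP30, a deubiquitinase on mitochondria that opposes Parkin, went from 19.5 ± 0.160 to 3.91 ± 0.412 CPM (log2 -2.32 ± 0.17, adjusted p = 2.81e-05). MIEF2, a receptor for DRP1, went from 15.4 ± 0.966 to 6.10 ± 0.663 CPM (log2 -1.34 ± 0.15, adjusted p = 1.90e-04), and MTFR1L, a relative of the fission regulator MTFR1, fell by 1.30 on the log2 scale (SE 0.10, adjusted p = 3.77e-05).

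In arginine-starved ρ0 cells 10 genes of the list were higher, 11 were lower and 30 were not called, with a median of -0.07 against -0.02 over all tested genes, of which 19.2% were higher and 22.1% lower. The fission genes were 0 higher and 7 lower of 13, with a median of -0.40. They were 0 higher and 10 lower without full-medium ρ0 library 1, and 2 higher and 8 lower without library 2. In these fits 31% and 30.8% of all tested genes were higher and 31.8% and 31.6% lower. Over the whole list 17 were higher and 21 lower without library 1, and 19 were higher and 15 lower without library 2. By role, 2 of 5 outer membrane fusion genes were higher and 1 lower, 4 of 10 receptors and adaptors were higher and 1 lower, and 1 of 11 genes of the PINK1 and Parkin pathway was higher and 2 lower. Of the inner membrane genes 2 of 8 were higher and 0 lower, and of the transport genes 1 of 4 was higher and 0 lower. PLD6 rose by 1.52 ± 0.34 on the log2 scale (adjusted p = 0.0103), from full-medium libraries of 9.23 and 22.9 CPM to starved libraries of 48.2 and 44.2 CPM. Its rise was 1.02 without full-medium ρ0 library 1 and 2.34 without library 2. BNIP3L, a mitophagy receptor on the outer membrane, went from 119.0 ± 38.0 to 222.8 ± 5.27 CPM (log2 0.90 ± 0.19, adjusted p = 0.00773), and its rise was 1.27 and 0.62 without these libraries in turn. SQSTM1 rose by 0.65 ± 0.20 (adjusted p = 0.0372), from full-medium libraries of 552.1 and 901.0 CPM to starved libraries of 1179 and 1101 CPM, and its rise was 0.34 without full-medium ρ0 library 1 and 1.06 without library 2. All of these values passed the test. USP30 fell by 0.95 on the log2 scale (adjusted p = 0.00443), SLC25A46, an outer membrane protein of the carrier family, by 0.65 (adjusted p = 0.00199) and MIEF2 by 0.61 (adjusted p = 0.0127).

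PARK2, which encodes Parkin, has a mean under 1 CPM and was looked at after its values were seen. It fell by 2.04 on the log2 scale in parental cells (SE 0.28, adjusted p = 5.15e-04), more than MIEF2 and MTFR1L, and had 76 and 59 counts in full-medium and 13 and 15 counts in arginine-starved parental libraries. It had 3 and 3 counts in full-medium and 1 and 0 counts in arginine-starved ρ0 libraries, at or under the floor of 3 counts, so that no fold with starvation is given for ρ0 cells.

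For the 4 members whose level varied most over the libraries, the tested genes with the most similar profile were found by the root mean square difference of centred log2 CPM over the 8 libraries, given in brackets. Those of MFF were ARHGEF1 (0.11), PEAR1 (0.12) and COG8 (0.12), and those of PINK1 were BAIAP2-AS1 (0.09), TGFBR2 (0.12) and DAB2 (0.12). Those of FUNDC1 were ATP6V0E1 (0.07), ZNF132 (0.10) and GLA (0.11), and those of OMA1 were SQLE (0.09), WDFY2 (0.10) and TBL1X (0.10). None of the nearest genes was a member. The member most like MFF was PINK1 (0.38), at rank 573, and the member most like FUNDC1 was DNM1L (0.29), at rank 182 among the tested genes.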

How the data were processed

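RNA was sequenced from 8 libraries, 2 in each of 4 groups. The authors deposited unnormalized read counts for each gene symbol in a single table, and the submitters' processing notes name Bowtie, Partek and hg19 without versions or strand setting. The fits were made with edgeR 4.0.16 under R 4.3.3 (filterByExpr, TMM, quasi-likelihood test, 1 mean per group, all 8 libraries, 4 residual degrees of freedom), which tested 15262 of 23393 genes. P-values were adjusted by Benjamini-Hochberg over all tested genes, and each standard error was taken from the log2 fold change and its F statistic (their ratio after a square root of F). DESeq2 1.42.0, limma 3.58.1 (voom), other scalings and filters, a replicate block, fits to 4 libraries and leaving out each library were alternatives. Leaving out either full-medium ρ0 library for the wider list was chosen after seeing the data. CPM use TMM-scaled library sizes. Levels per length divide CPM by the median length of basic coding transcripts in GENCODE v29 (GRCh38). These need not be the isoforms that the cells use. Overlapping exons are from the same annotation. Of the wider list, 4 genes were matched by another symbol. The named genes of that list are the 3 largest called rises and falls per starvation contrast with a mean of at least 1 CPM. Nearest profiles are the 3 tested genes closest to each of the 4 most variable members. The members, lists and tests were chosen with earlier results of these data known. On simulated counts of 15262 genes, 60% of log2 changes of 1 and 90% of those of 2 were recovered for the parental contrast. For the difference between responses 33% and 80% were. Among genes without a planted change there were 12 and 9 false calls. The simulation gave each gene the same spread in all 4 groups and changed few genes. It lacks the wide spread of the full-medium ρ0 pair, so that these shares need not hold for the data.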

Additional observations from a re-analysis of the deposited data

Results flagged for a closer look

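The starvation responses of ρ0 and parental cells were compared by the test of the difference itself (edgeR's quasi-likelihood test, ρ0 minus parental, log2 scale, 2 libraries per group). It called 4 of the 9 members, against 40.4% of all tested genes, and 5 named genes of the wider list. Those genes were named for large starvation responses in at least 1 line. These responses enter the difference, so that the calls of the named genes are no independent support. OMA1 differed by 1.51 (adjusted p = 8.82e-04), from a fall in parental to a rise in ρ0 cells. MFF differed by 1.13 (adjusted p = 0.00114), with a smaller fall in ρ0 cells. PINK1 differed by 1.62 (adjusted p = 0.00761), with a fall that was called in parental cells only and a ρ0 value whose sign depended on the full-medium ρ0 library used. FUNDC1 differed by -0.56 (adjusted p = 0.0283), with a fall called in ρ0 cells only, and this difference was not called with upper quartile scaling (0.0557), with total counts (0.0526) or without any 1 of 5 libraries. In the wider list, BNIP3L differed by 1.93 (adjusted p = 0.00190), with 140.8 ± 8.88 and 69.2 ± 0.442 CPM in full-medium and arginine-starved parental cells against 119.0 ± 38.0 and 222.8 ± 5.27 CPM in ρ0 cells. USP30 differed by 1.37 (adjusted p = 0.00458), MTFR1L by 0.89 (adjusted p = 0.00321), MIEF2 by 0.73 (adjusted p = 0.0283) and SQSTM1 by -0.98 (adjusted p = 0.0301). Without full-medium ρ0 library 1 or 2 these last 2 values and that of BNIP3L kept their calls, at 0.62 and 0.84 for MIEF2, -1.29 and -0.61 for SQSTM1 and 2.30 and 1.61 for BNIP3L.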

How the results depend on the processing

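Of 801 values of single members under the alternatives, 723 kept direction and side of the threshold, 36 lost the call, 21 gained it and 21 changed sign. Of the 45 main values 26 were called, and none of these 26 changed sign under any alternative run. The sign changed only for values that were not called with all libraries, and among the changed signs that of PINK1 in ρ0 cells passed the test (adjusted p = 5.95e-04). In parental cells this was OPA1 (0.0083 with DESeq2's size factors and by DESeq2, 0.0067 with no filter, 0.0274 in a fit to the 4 parental libraries, -0.0397 to 0.0329 with each library left out), FIS1 (-0.0947 with upper quartile scaling, -0.137 with total counts, -0.0090 with a minimum of 10 counts, -0.0358 to 0.0839 with each library left out) and FUNDC1 (-0.0207 with upper quartile scaling, -0.0625 with total counts, -0.0139 to 0.216 with each library left out). In ρ0 cells it was OPA1 (-0.0100 with total counts) and PINK1 (-0.53 to 0.29 with each library left out). For the difference of the responses it was MFN1 (-0.390 to 0.0544), and for the lines in full medium FIS1 (-0.20 to 0.0078). The median of all tested genes in the parental contrast was -0.07 with TMM, -0.19 with upper quartile scaling and -0.23 with total counts. Its part in the changes of sign was not tested.

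The count of called members in ρ0 cells was 4, and it was 2 by limma-voom with group weights, 1 in a fit to the 4 ρ0 libraries and 1 to 8 with each library left out. It was 0 with a log2 threshold of 1 in edgeR. That threshold left 2 in parental cells and, between the lines, 2 in full medium and 3 after starvation. For the difference of the responses the count was 3 to 7 with each library left out. In parental cells it was 4 to 6. These counts are to be read against the share of all tested genes called in the same runs. In ρ0 cells that share was 41.3% in the main fit. It was 26.2% by limma-voom with group weights and 22.1% in the fit to the 4 ρ0 libraries. With each library left out, the share was highest without a full-medium ρ0 library in each of these comparisons, as were the counts of members. The causes were not tested, except that a fold threshold calls less by construction.

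With the replicate number as a block, the counts were 5, 4, 4, 6 and 7 in the 5 comparisons, as without it, and no call of a member changed. Deviations of same-numbered libraries from their group means correlated between -0.0530 and 0.0386 across genes, which gives no sign of a pairing. With 2 libraries per group this does not show whether same-numbered libraries shared a culture or batch, and the labels do not say. With 2 libraries per group, changes smaller than about the confidence intervals given were not detectable.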
